A study of Mus musculus with 2 samples.

Results

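The solute carrier genes, the largest group of membrane transporter genes in mammals, were compared between mouse bone marrow-derived macrophages that kept 1 copy of the transcription factor gene c-Maf (c-Maf+/-) and macrophages that had none (c-Maf-/-). Members were all genes named Slc with a family number, a letter and a member number in the probe annotation, without 9 that were set aside (Slc40a1, Slc11a1, Slc11a2, Slc7a11, Slc7a2, Slc2a1, Slc16a3, Slc3a2 and Slc7a5). This gave 350 genes in 46 families, out of 22620 named genes on the array. Both cultures had received M-CSF, the growth factor that turns marrow progenitors into macrophages, for 5 days, and then 100 ng/ml lipopolysaccharide (LPS), a bacterial product that activates Toll-like receptor 4, for 5 h. The strain, age and number of mice, the design of the c-Maf allele, a wild-type group and cells without LPS are not among the labels used here, so both groups were LPS-treated and the reference group was heterozygous. The RNA of each genotype was hybridised to 1 one-colour array, so no test between genotypes was possible and every difference describes these 2 preparations.

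Solute carriers are membrane proteins that move ions, metals, sugars, amino acids, nucleotides, vitamins and other small molecules across membranes, by exchange or together with an ion whose gradient drives the movement, or as passive carriers. The family number groups related proteins, which often, though not always, carry related substrates. In macrophages such carriers supply fuel and building blocks, set the metal and proton content of phagosomes and lysosomes, and pass metabolites between cytosol and mitochondria. c-Maf is a basic leucine zipper factor that binds DNA at Maf recognition elements.

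The signals below are the scanner software's processed intensities, after its background subtraction. A difference is log2 of the signal, taken relative to the 75th percentile of all non-control spots of its array (a signal of 291 on the c-Maf+/- array and of 296 on the other), for c-Maf-/- minus c-Maf+/-. A difference of 1 is therefore 2-fold. The error given with a difference comes from the software's error model for the spots and holds no biological variation. Over the members measured by 1 probe with 1 spot, the error was 0.20 at the lowest, 0.21 at the median and 0.41 at the highest. Averaging can bring it lower, as for Slc25a4 with 10 spots (0.06). A gene counts as measured where at least 1 of its probes was flagged well above background on both arrays. Differences were taken for the same probe between arrays, since each probe binds with its own strength. Signals of different genes served only to sort genes by brightness and to sum markers.

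The targeted gene was checked first. One Maf probe (mm9, chr8:118227736-118227795) read 15101 in c-Maf+/- and 12.6 in c-Maf-/-, where it was not well above background, which is at least 636-fold lower. The other (chr8:118207273-118207332) read 541 and 5.96, at least 22.8-fold lower. All 10 macrophage markers were measured on both arrays, with 6 below 0 and a median of -0.21. Mertk was the 1 of them past 2-fold, at -1.91, and their summed signal went from 344497 to 377071 with the bright Cd14 (0.46) and Lyz2 (0.58). Of 10 neutrophil markers 9 were measured and all 9 were below 0, with a median of -1.01 and summed signals of 100025 and 55300. At least 2-fold lower were 5 of the 9, beside 1.73% of all measured genes. Of 9 dendritic cell markers 7 were measured. At least 2-fold lower were 2 of them (Fscn1 at -1.50 and Itgax at -1.09), beside the same 1.73%. Below 0 were 5 of the 7, with a median of -0.60 over the 7. Their summed signals of 44634 and 46526 were almost all Siglech, and Xcr1 was below background. Of 4 megakaryocyte markers 3 were above 0 (median 0.66), and their sums of 58787 and 57467 were almost all Pf4. Of the erythroid markers only Hba-a1 was measured, at 30.7 and 55.4, while Alas2, Epb42, Hbb-b1 and Klf1 were among those below background. Of 7 lymphocyte markers 4 were measured, among them Cd3e (959 and 1115) and Lck (1530 and 810, -0.94), while Cd3d and Ms4a1 were below background. Whether these markers have a part in the carrier differences was not tested. In bulk RNA, fewer cells of a type and less RNA per cell cannot be told apart.

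Among the measured carriers 10 differed at least 2-fold, and the first 30 bases of their probes are shown because each of these differences rests on a single probe of 60 bases. They are written 5′ to 3′ as deposited, and their positions are those of the files (mm9). Exon and UTR annotation of mm9 was not used here.
Slc6a13, chr6:121287597-121287656 (+): ggtccacacattgtgacgtgcccgaatcaa
Slc32a1, chr2:158441324-158441383 (+): aaactcatcttgtgcaatgtatccggtcgt
Slc20a1, chr2:129037286-129037345 (+): ggacagccttccatgttcatctgtctacct
Slc1a2, chr2:102617752-102617811 (+): aagcaactctaatcagtgtgtctatgccgc
Slc15a2, chr16:36750603-36750662 (-): ggtcagggaacgacgttgggaatattagga
Slc25a30, chr14:76161882-76161941 (-): ttcacttacagtaagactcgacctttgtga
Slc24a5, chr2:124913773-124913832 (+): gtttattaagactgcatttacgaatgcatc
Slc39a8, chr3:135551169-135551228 (+): gtgatgagaattagtaatagaagccaagtt
Slc9a9, chr9:95129265-95129324 (+): gaaagaggatgacgtggaatgtatcgtcaa
Slc26a4, chr12:32204766-32204825 (-): aggaaggactaatcacagagattcctgact

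Of the 350 carriers, 191 were measured on both arrays, 6 were well above background in c-Maf+/- only, 6 in c-Maf-/- only, and 147 on neither. The measured share was 54.6%, against 54.9% of all named genes. In 43 of the 46 families at least 1 gene was measured. The families without one were family 14, the urea transporters, family 47, the drug and toxin extruders, and family 3, of which the choice of members left only Slc3a1. Detection differed widely between families: 12 of 14 zinc importers of family 39 and 33 of 47 mitochondrial carriers of family 25 were measured, but 9 of 25 organic ion transporters of family 22, 2 of 11 sodium-coupled carriers of family 5 and 8 of 18 sodium-coupled neurotransmitter and amino acid carriers of family 6. Among those below background on both arrays were the kidney and gut carriers Slc5a1, Slc5a2 and Slc22a12, the vesicular glutamate transporters Slc17a6 and Slc17a7, and the insulin-responsive glucose transporter Slc2a4.

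**Figure D1:**
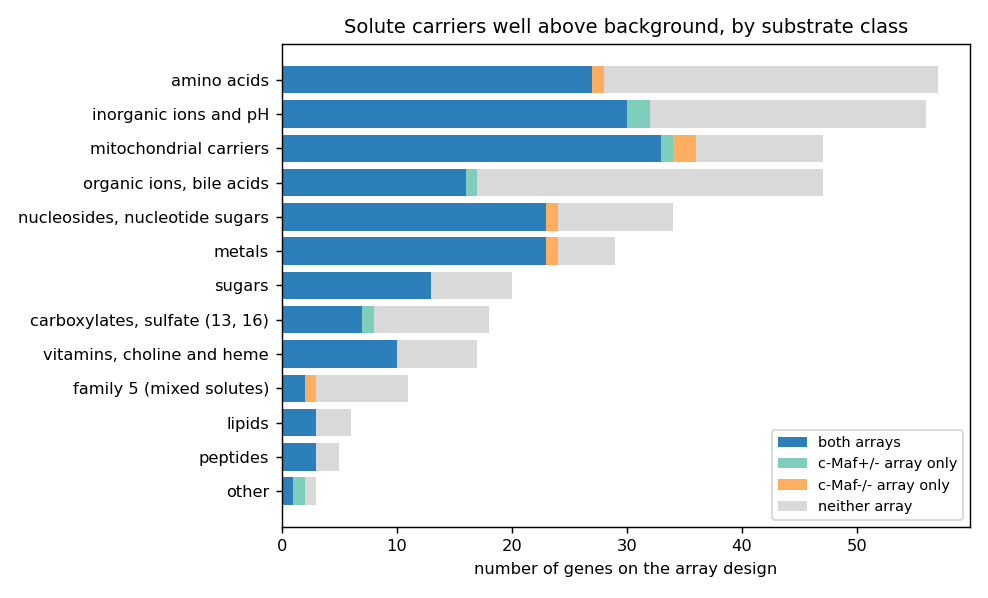
Number of solute carrier genes on the array in each substrate class, split by where a probe passed the detection flag: both arrays, only c-Maf+/-, only c-Maf-/-, or neither. Across all classes 191 of 350 genes were measured on both arrays and 147 on neither.

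Over the 191 measured carriers the median difference was -0.04 (SD 0.48), against -0.02 (SD 0.41) over the 12408 genes measured in all, with 88 above 0 and 103 below. At least 2-fold higher in c-Maf-/- were 6 carriers (3.14%), beside 1.43% of all measured genes. At least 2-fold lower were 4 (2.09%), beside 1.73%. At 1.5-fold, 21 carriers (11.0%) were higher, beside 5.38%, and 16 (8.38%) were lower, beside 6.5%, while 154 lay between. Nearly all of the 2-fold calls lie among dim genes, while the 1.5-fold counts also hold bright ones such as Slc1a4 and Slc30a4. Of the 105 carriers whose mean level over both arrays was at or above the 75th percentile, 1 was 2-fold higher (0.952%, beside 0.745% of all such genes) and 0 were 2-fold lower (beside 1.11%). Of the 86 with a mean level below it, 5 were 2-fold higher (5.81%, beside 2.63%) and 4 were 2-fold lower (4.65%, beside 2.83%). Under another background correction (normexp), 1 carrier was 2-fold higher (0.524%, beside 0.548% of all genes) and 2 were 2-fold lower (1.05%, beside 0.878%), and the counts were the same with no background subtraction. Slc20a1, Slc24a5 and Slc39a8 stayed past 2-fold in both settings, and the other 7 did not. Both settings leave an added amount in every signal, an offset of 50 in normexp and the background in the other. That shrinks differences between dim signals by construction, so the loss of the 7 dim carriers is no separate check of them. With no filter on dim probes, 13 of 350 carriers were 2-fold higher (3.71%, beside 3.91%) and 12 were lower (3.43%, beside 3.85%).

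**Figure D2:**
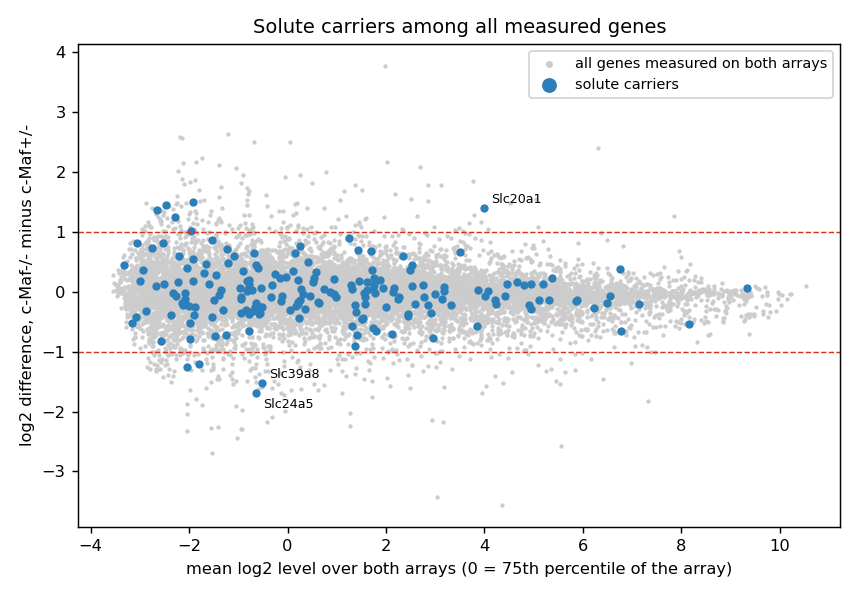
Log2 difference, c-Maf-/- minus c-Maf+/-, of every gene measured on both arrays against its mean log2 level relative to the 75th percentile, with the solute carriers marked and horizontal lines at 2-fold. The 3 labelled carriers, Slc20a1, Slc39a8 and Slc24a5, are those past 2-fold that reached the 75th percentile on at least 1 array, and the other 7 past the lines lie among dimmer genes.

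The 3 that reached the 75th percentile on at least 1 array carry phosphate, zinc and calcium. Slc20a1, a sodium-phosphate cotransporter of the plasma membrane (PiT-1), read 2846 in c-Maf+/- and 7587 in c-Maf-/-, a difference of 1.39 with an error of 0.20. It was thus 2.62-fold higher without c-Maf. Its relative in family 20, Slc20a2 (PiT-2), read 164 and 169, a difference of 0.01. A second Slc20a1 probe read 15.1 and 20.2 and was below background on both arrays. Averaging it in, as happens without a filter on dim probes, brings Slc20a1 to 0.89.

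Slc39a8 (ZIP8), which imports zinc and manganese and is known as a zinc importer of activated macrophages and monocytes, read 346 and 122, a difference of -1.53 with an error of 0.21, or 2.89-fold lower in c-Maf-/-. Slc24a5, a potassium-dependent sodium-calcium exchanger best known from pigment cells, read 335 and 105. Its difference was -1.69 with an error of 0.22, 3.23-fold lower. Both signals crossed from above the 75th percentile of the array to below it.

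**Figure D3:**
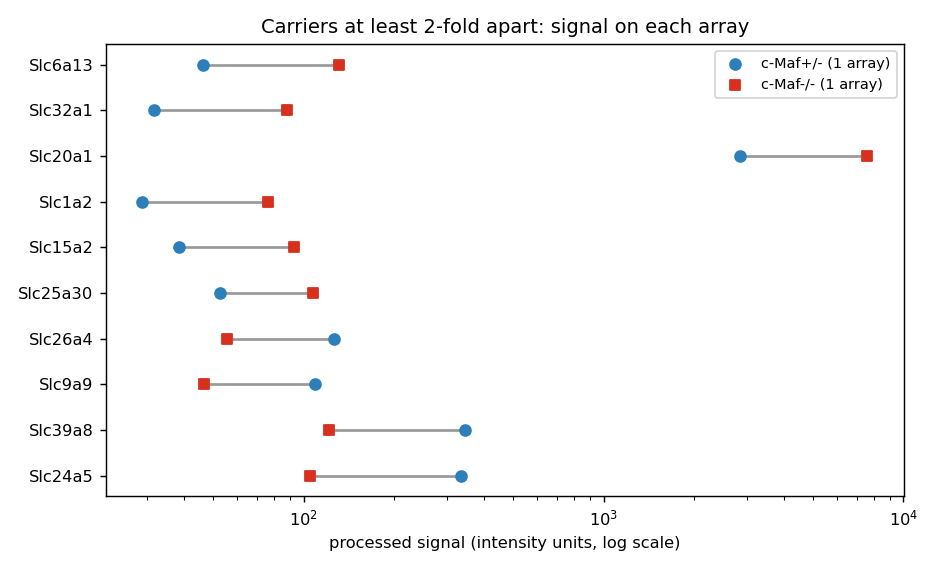
Processed signal on a log axis of the 10 carriers that differed at least 2-fold, 1 point for each array joined by a line that marks no measurement of its own. Slc20a1 goes from 2846 to 7587, while the 5 other higher carriers start below 60 in c-Maf+/-, and all 4 lower carriers end between 46.5 and 122 in c-Maf-/-.

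The carriers of inorganic ions and protons held 4 of the 10 differences past 2-fold. Of 56 such genes 30 were measured, with a median of -0.16 and 19 below 0, which became -0.02 and 15 with spike-in scaling. Besides Slc20a1 they included 3 at least 2-fold lower (beside 1.73% of all genes). At least 1.5-fold lower were 8 of 30 (26.7%, beside 6.5%), and 3 were at least 1.5-fold higher (beside 5.38%). The sodium-proton exchangers of family 9, which regulate the pH of the cytosol and of endosomes and the Golgi, had 6 measured genes, all below 0, with a median of -0.49. With the 4 other scalings of the arrays 5 of the 6 were below 0, and the median was -0.35 when scaled to the spike-in transcripts. Slc9a9, the exchanger of late recycling endosomes, read 109 and 46.5, a difference of -1.25. Slc9b2, a sodium-proton antiporter known from osteoclasts, read 96.4 and 56.7, a difference of -0.79. Slc9a7 read 192 and 151 over 2 probes (-0.37). The Golgi exchanger Slc9a8 (-0.60) rests on probes that differ from each other, described below.

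Both measured potassium-dependent exchangers of family 24 were lower in c-Maf-/-. Slc24a3 read 1032 and 561, a difference of -0.90 with an error of 0.20, beside Slc24a5. All 3 measured sodium-calcium exchangers of family 8, which do not need potassium, were above 0, at 0.13 for Slc8a1 of the plasma membrane, 0.28 for Slc8a3 and 0.35 for Slc8b1 of the mitochondrial membrane. The signs in both families held in all 5 scalings. None of the family 8 genes reached 1.5-fold.

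Among the anion exchangers of family 26, pendrin (Slc26a4), which carries chloride, iodide and bicarbonate, read 126 and 55.6, a difference of -1.21 with an error of 0.26. At the other end of that family the sulfate carrier Slc26a1 read 26.3 and 46.9 (0.81), with an error of 0.37 at signals near background. Slc26a2, another sulfate carrier, was at -0.09 and Slc26a6 at 0.05 over 3 probes. The bicarbonate transporters of family 4 ranged from -0.72 for Slc4a11 (157 to 96.8) to 0.72 for the red cell anion exchanger Slc4a1, whose signals of 33.4 and 56.0 were dim. Others with a part in the acid balance of many cells, Slc4a7 (1971 and 1670, -0.23, 2 probes) and Slc4a2 (2065 and 1968, -0.10), lay within 1.5-fold. Of the cation-chloride cotransporters of family 12, the potassium-chloride carrier Slc12a7 read 1279 and 823 (-0.66) and was the lowest. The sodium-potassium-chloride carrier Slc12a2 read 214 and 183 (-0.25). The potassium-chloride carrier Slc12a4 was at 7867 and 8632 (0.11).

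The metal carriers were mostly detected, 23 of 29, and their median was 0.04, or 0.18 when scaled to the spike-in transcripts. Of the 12 zinc importers of family 39 measured on both arrays, Slc39a8 was the 1 past 2-fold, and Slc39a12, detected on 1 array only, has a bound given below. The highest of the 12 was Slc39a4, the importer of dietary zinc in the gut, at 506 and 955, a difference of 0.89 with an error of 0.20. Slc39a7, which releases zinc from the endoplasmic reticulum, read 27581 and 36460 (0.38). Slc39a14 (ZIP14), the relative closest to Slc39a8 in what it carries, read 4829 and 4695 (-0.07), and Slc39a1 read 27943 and 27087 (-0.07). Of the family's 12 measured genes 7 were below 0 and 5 above, which became 4 below and 8 above when scaled to the spike-in transcripts.

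Zinc exporters of family 30 were above 0 in 4 of 6 genes (5 of 6 with spike-in scaling). The plasma membrane exporter Slc30a1 read 862 and 867 (-0.02). Slc30a4, which loads zinc into vesicles, read 2967 and 1761, a difference of -0.78, while the secretory pathway exporters Slc30a5 (844 and 1106, 0.36), Slc30a6 (0.23) and Slc30a7 (0.29 over 2 probes) were on the other side of 0. The plasma membrane copper importer Slc31a1 read 8590 and 9532 (0.12), and its relative of intracellular membranes Slc31a2 read 6353 and 5511 over 2 probes (-0.21). In the magnesium transporter family 41, Slc41a2 read 621 and 1019 (0.69), Slc41a1 was at 0.39 and Slc41a3 at -0.19.

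Of 57 amino acid carriers 27 were measured, with a median of -0.12, which became 0.01 when the arrays were scaled to the spike-in transcripts. At least 2-fold higher were 3 of the 27 (11.1%) and at least 2-fold lower 0, beside 1.43% and 1.73% of all measured genes. Among all genes with a mean level below the 75th percentile, 2.63% were 2-fold higher. The 3 were neurotransmitter carriers with low signals. Slc6a13, a GABA transporter, read 46.1 and 132, a difference of 1.49 with an error of 0.27. Slc32a1, which loads GABA and glycine into synaptic vesicles, read 31.7 and 87.9, a difference of 1.44 with an error of 0.31, and its second probe read 25.4 and 29.4, well above background in c-Maf-/- only. Slc1a2, the main glutamate transporter of astrocytes, read 28.98 and 76.1, a difference of 1.37 with an error of 0.37, and its 2 other probes were below background. Slc6a12, a carrier of GABA and betaine chosen after its values were seen, read 112 and 172 (0.59), below the 75th percentile on both arrays, and the GABA carrier Slc6a11 was below background. The serotonin transporter Slc6a4 was on the other side, at 212 and 136 (-0.67).

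The neutral amino acid exchanger Slc1a4 read 39934 and 25665, a difference of -0.66, and its relative Slc1a5, a glutamine importer, read 369 and 307 over 2 probes (-0.30). The sodium-coupled carrier Slc38a2, which cells raise when amino acids are short, read 1199 and 1850, a difference of 0.60. Slc38a7 and Slc38a9, glutamine and arginine carriers of the lysosome, were at -0.45 (972 to 724) and -0.06 (211 to 204 over 2 probes), and the lysosomal proton-coupled carrier Slc36a1 was at -0.12 over 2 probes. In family 7, 4 of 5 measured genes were below 0 (3 of 5 with spike-in scaling). Slc7a7, the light chain that exports cationic amino acids, read 5105 and 3488 (-0.58), and Slc7a4, an orphan of the cationic branch, read 135 and 82.3 (-0.74). The cationic amino acid importer Slc7a1 read 6079 and 6768 (0.13), and the exchangers Slc7a6 and Slc7a8 were at -0.03 and -0.16. In family 43, the large neutral amino acid carrier Slc43a2 read 1837 and 1415 (-0.40). Its relative Slc43a3, counted here by family number and not by its own substrate, read 885 and 603 (-0.58). The taurine transporter Slc6a6 read 23861 and 20200 (-0.27), and the creatine transporter Slc6a8 read 2621 and 2689 (0.01).

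**Figure D4:**
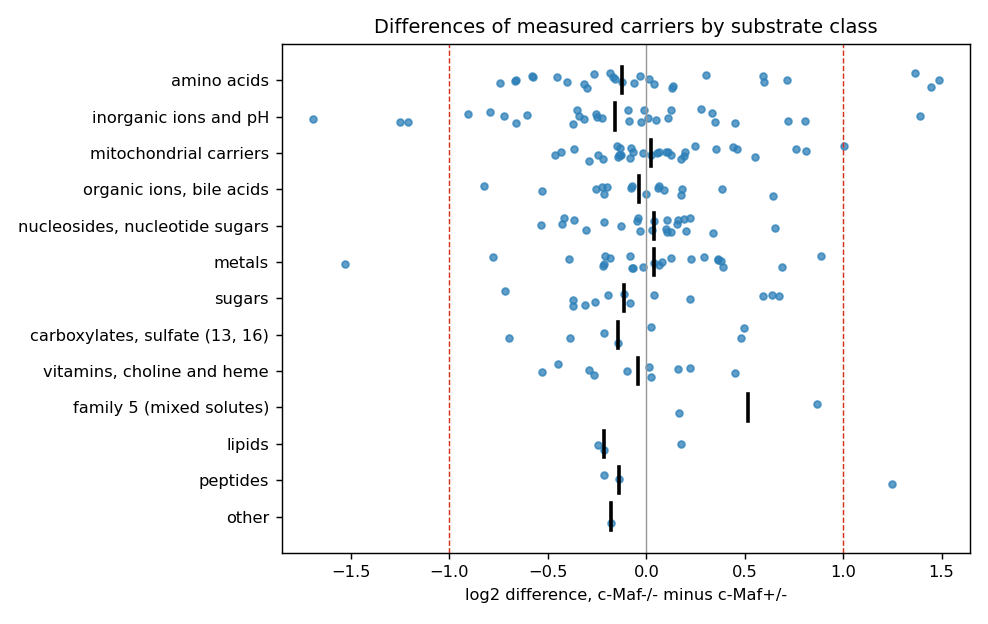
Log2 difference, c-Maf-/- minus c-Maf+/-, of each of the 191 measured carriers by substrate class, with a bar at each class median. Medians lie between -0.21 for the 3 fatty acid carriers and 0.52 for the 2 measured genes of family 5, and most points of every class lie within 2-fold of 0.

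Sugar carriers were measured for 13 of 20 genes, with a median of -0.12 that became 0.02 when scaled to the spike-in transcripts. In the facilitated glucose transporter family 2, 5 of 6 were below 0 and the median was -0.25. With spike-in scaling 4 of 6 were below 0, with a median of -0.12. The glucose transporters Slc2a8 (1794 and 1410) and Slc2a3 (221 and 174) were both at -0.37, and Slc2a6, a lysosomal member known from inflammatory macrophages, read 57486 and 50754 over 2 probes (-0.20). The highest was Slc2a12, at 242 and 287 (0.22). Family 37, the sugar phosphate carriers of the endoplasmic reticulum, split in both directions. Slc37a2, known for its high level in macrophages, read 1088 and 665 over 2 probes, a difference of -0.72 with a probe SD of 0.07. Slc37a4, which moves glucose 6-phosphate for the glucose-6-phosphatase system, read 752 and 1219, a difference of 0.67. Slc37a1 was at 0.59 and Slc37a3, read by 10 spots on each array, at -0.08 with a spot SD of 0.08. In family 45 Slc45a4 was at 0.64 and Slc45a3 at -0.26.

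Carriers of small organic acids were detected in 7 of 18 genes. The sodium-coupled dicarboxylate importer Slc13a3, which carries succinate and itaconate among others, read 1604 and 1005, a difference of -0.70, and was the 1 gene of family 13 that was measured. In the monocarboxylate family 16, the lactate and pyruvate transporter Slc16a1 read 109 and 101 (-0.14). Slc16a6, which exports ketone bodies, read 709 and 946 over 2 probes and was the family's highest at 0.50, and Slc16a12, a creatine carrier, read 89.7 and 69.8, its lowest at -0.39. Their partner proteins Bsg and Emb, which carry family 16 members to the cell surface, were at 0.19 and 0.52.

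The mitochondrial carriers of family 25 were the largest family on the array and stayed close together, with 33 of 47 measured, a median of 0.02 and 17 genes above 0 against 16 below (24 against 9 with spike-in scaling). Of these 33 genes 3 were at least 1.5-fold higher (9.09%, beside 5.38% of all measured genes), and 0 were as much lower (beside 6.5%). Slc25a30, an inner membrane carrier first described in kidney, read 52.7 and 108, a difference of 1.004 with an error of 0.27, the smallest of those counted as 2-fold. With quantile normalization it was at 0.99. Slc25a47, a carrier known from liver, read 38.01 and 68.0 (0.81). Slc25a33, which brings pyrimidine nucleotides into mitochondria, was at a higher signal, 423 and 785, and its 2 probes gave 0.62 and 0.89, a mean of 0.76. Mitoferrin-1 (Slc25a37), which imports iron, read 2929 and 4368 over 2 probes (0.44), while mitoferrin-2 (Slc25a28) read 2277 and 1989 (-0.22). The lowest was the ATP-magnesium and phosphate carrier Slc25a25, at 1046 and 766 over 2 probes (-0.46).

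Other mitochondrial carriers lay between these ends. The citrate carrier Slc25a1 read 1897 and 2080 (0.11), and the oxoglutarate-malate carrier Slc25a11 read 10172 and 11296 (0.13). The aspartate-glutamate carriers Slc25a12 and Slc25a13 were at -0.29 and -0.43, and the dicarboxylate carrier Slc25a10 was at -0.37. The ADP/ATP carriers Slc25a4 and Slc25a5 were at -0.13 (spot SD 0.04 over 10 spots) and 0.06, and the phosphate carrier Slc25a3 was at -0.07 over 2 probes. Slc25a38, the glycine carrier of heme synthesis, read 1438 and 1871 (0.35), and Slc25a51, the importer of NAD, was at 0.18 over 2 probes.

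Nucleotide sugar transporters of family 35, which feed glycosylation in the Golgi and the endoplasmic reticulum, were above 0 in 12 of 19 measured genes, with a median of 0.10, which became 16 of 19 and 0.24 with spike-in scaling. The GDP-fucose transporter Slc35c1 read 2634 and 4224, a difference of 0.66 with an error of 0.20, and was the 1 gene of the family past 1.5-fold. The UDP-galactose transporter Slc35a2 was at 0.20 over 2 probes, the CMP-sialic acid transporter Slc35a1 at 0.11 and the sulfate donor transporter Slc35b2 at -0.05. The lowest was Slc35a5, at 117 and 88.5 (-0.43). Of the nucleoside carriers, the sodium-coupled purine nucleoside importer Slc28a2 read 100435 and 70477, a difference of -0.54. The lysosomal nucleoside carrier Slc29a3 was at 203 and 170 over 2 probes (-0.30), and the plasma membrane carrier Slc29a1 at 996 and 1156 (0.19).

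The lysosomal peptide and histidine carriers Slc15a3 and Slc15a4, which take part in signalling from endosomal Toll-like receptors, read 44073 and 38684 (-0.21) and 12163 and 11226 (-0.14). Slc15a2, the high-affinity peptide transporter of kidney and brain, read 38.5 and 93.2, a difference of 1.25 with an error of 0.31, and was the 1 peptide carrier past 2-fold. Vitamin carriers lay within 2-fold. The biotin and pantothenate importer Slc5a6 was the highest of them, at 74.6 and 138 (0.87), with signals below the 75th percentile on both arrays. The thiamine importer Slc19a2 read 160 and 222 (0.45), the proton-coupled folate transporter Slc46a1 read 421 and 311 over 2 probes (-0.45), and the heme transporter Slc48a1 of lysosomes and phagosomes read 6993 and 7948 (0.16). Fatty acid carriers of family 27 were between -0.24 and 0.18, with Slc27a1 at 1899 and 1666 (-0.21). The acetyl-CoA transporter Slc33a1 read 493 and 447 over 2 probes (-0.18).

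Organic ion carriers were largely undetected, and all 9 measured genes of family 22 lay within 1.5-fold, from -0.26 for Slc22a18 (201 and 172) to 0.38 for the ergothioneine transporter Slc22a4 (169 and 224). The vesicular monoamine transporter Slc18a1 read 64.8 and 37.2 (-0.82, error 0.35), and the vesicular nucleotide transporter Slc17a9 read 144 and 229 (0.64). The bile acid transporter Slc10a1, known from hepatocytes, had a signal of 184383 and 196528, a difference of 0.07, from 1 probe (chr12:82056539-82056598), while its other probe (chr12:82061470-82061529) read 5.28 and 5.77, below background. The file lists the bright probe for transcripts of 4 genes (4930402H24Rik, Med16, Slc10a1 and Spc24). Its first 30 bases are shown beside those of the dim probe because they hold sequence of the B1 repeat, which is scattered through rodent genomes. Capitals mark the run of 14 letters in them that occurs in the most probes, 10 of 55681 on either strand, of which 7 were well above background on both arrays.
Slc10a1, bright probe: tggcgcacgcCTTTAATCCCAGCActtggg
Slc10a1, dim probe: cctacaaaggcattatgttatcactcgtca
The bright signal can therefore not be assigned to Slc10a1 alone. The Slc22a28 signal (365 and 320, -0.21) has the same limit, since both of its probes are also listed for Slc22a30.

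Where a level was well above background on 1 array only, the difference is a bound, taken against the dim signal itself or against the detection floor of that array, whichever was higher. At least 2-fold by that bound were 5 carriers, and all of them were dim. Higher in c-Maf-/- were Slc5a12, a sodium-coupled lactate carrier (6.08 and 105, at least 4.61-fold), the zinc importer Slc39a12 (6.11 and 79.5, at least 3.50-fold), and the mitochondrial carrier Slc25a48 (5.54 and 55.5, at least 2.44-fold). Lower were the kidney phosphate carrier Slc34a3 (93.3 and 17.4, at least 3.93-fold) and Slc16a8, a lactate carrier of retinal pigment epithelium (53.8 and 18.8, at least 2.26-fold). Slc5a12 and Slc39a12 each have another probe that was not well above background on either array, at 6.17 and 25.6 and at 4.83 and 5.30.

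Probes of the same gene that were well above background on both arrays mostly gave like values. Of the measured carriers 146 rested on 1 such probe and 45 on several, and the SD over these probes had a median of 0.09. Probes below background are not in this comparison. Slc12a7, for example, read 1279 and 823 by 1 probe and 4.78 and 5.13 by the other. It was above 0.3 for 8 genes, and for 13 the probes had opposite signs. The sialic acid exporter of lysosomes, Slc17a5, had the largest spread (SD 1.07). Its probe at chr9:78385399-78385458 read 354 and 579 (0.68), and its probe at chr9:78418831-78418890 read 213 and 122 (-0.83), so its mean of -0.07 describes neither. For Slc9a8 1 probe read 204 and 98.3 (-1.08) and the other 7108 and 6592 (-0.13). Slc16a7, a monocarboxylate transporter, had probes at 0.43, -0.55 and -0.53. For these genes the mean does not stand for every probe, and the cause of the difference between probes was not tested.

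**Figure D5:**
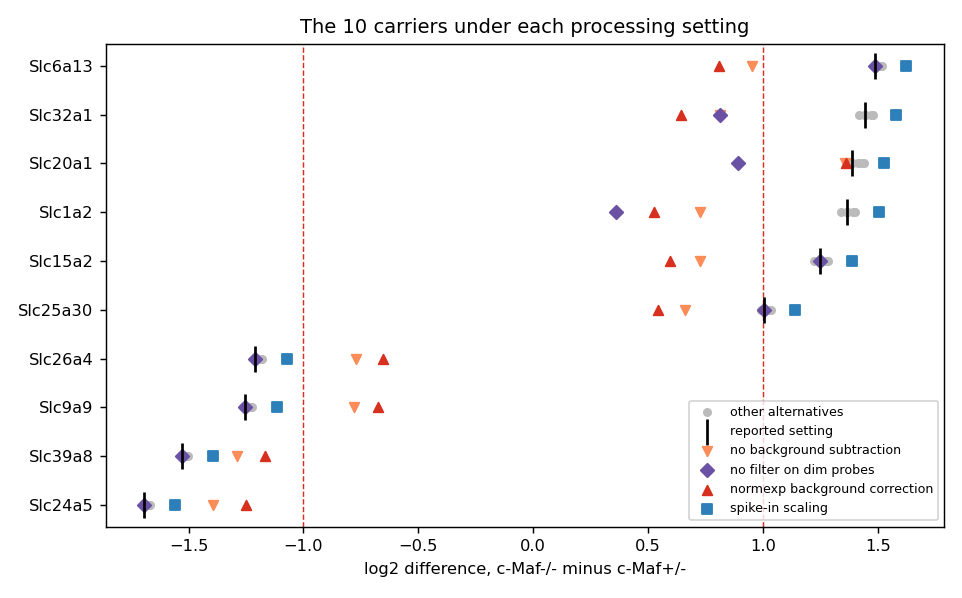
Log2 difference of the 10 carriers past 2-fold under the reported setting and each alternative that gives it a value, 1 row for each gene, with lines at 2-fold. Slc24a5 and Slc39a8 stay past 2-fold under every setting drawn, Slc20a1 under all but the absence of a filter on dim probes (0.89), and the others move inside the lines under normexp background correction or without background subtraction.

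Promoters were searched for the letters of Maf and related sites because c-Maf is a DNA-binding factor. TGATGNAA and ACGTG were searched as well, and neither is part of the Maf recognition element. RefSeq promoter windows (GRCm38.p6, 250 bases before to 50 after a start) were at hand for 270 carriers and for all 10 past 2-fold, some of which have several. The full palindromic Maf recognition element was in 1 of 32851 windows and in 0 of the 347 carrier windows. Its half-site TGCTGA was in 19.02% of carrier windows against 19.5% of all, and in 3 of the 14 windows of the 10 genes. The antioxidant-response core TGACNNNGC was in 16.1% against 12.4%, and in 3 of the 14. TGATGNAA, the letters of the amino acid response, was in 2.59% against 3.97%, and in 1 of the 14. ACGTG was in 25.4% against 19.6%, and in 5 of the 14. Both strands were searched. The upstream parts of a window of Slc20a1 (chr2:129198523-129198772, plus strand) and of Slc39a8 (chr3:135825029-135825278, plus strand) are shown as examples from the 3 carriers past 2-fold that reached the 75th percentile. Capitals mark ACGTG matches, which overlap on both strands in CACGTG, in the first, and a TGACNNNGC match on the reverse strand in the second.
Slc20a1: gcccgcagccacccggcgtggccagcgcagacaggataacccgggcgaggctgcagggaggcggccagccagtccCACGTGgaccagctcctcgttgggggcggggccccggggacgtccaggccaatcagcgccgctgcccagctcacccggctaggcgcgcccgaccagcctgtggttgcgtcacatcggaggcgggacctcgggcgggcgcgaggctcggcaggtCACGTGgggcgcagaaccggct
Slc39a8: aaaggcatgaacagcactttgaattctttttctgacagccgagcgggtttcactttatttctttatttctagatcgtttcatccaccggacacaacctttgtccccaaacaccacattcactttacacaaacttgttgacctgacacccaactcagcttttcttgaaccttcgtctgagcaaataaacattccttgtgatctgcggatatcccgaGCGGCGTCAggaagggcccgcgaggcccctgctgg
A match of letters is a description of the window, not a site that was shown to be bound.

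Transporters outside the Slc numbering, and partner proteins of carriers, were followed as a list of 62 genes that covers organic anion transporters, mitochondrial pyruvate and uncoupling carriers, ABC exporters and sodium pump subunits. Of these 61 were on the array and 44 were measured, with a median of -0.05, 16 above 0 and 28 below. At least 2-fold higher were 0 and at least 2-fold lower 0, beside 1.43% and 1.73% of all measured genes. The organic anion transporter Slco4a1 was the highest at 363 and 653 (0.82), and Slc9a3r2, a scaffold of sodium-proton exchangers, the lowest at 101 and 66.3 (-0.64). The ABC exporters Abcb1a and Abcc3 were at -0.59 and -0.54. The pyruvate carrier subunits Mpc1 and Mpc2 were at -0.15 and -0.06, and the uncoupling protein Ucp2 was at -0.01.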

How the data were processed

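Total RNA from 1 c-Maf+/- and 1 c-Maf-/- macrophage culture (50 ng each, per the labels' protocols) was labelled with Cy3. The authors deposited linear spot intensities from Agilent Feature Extraction 10.7.3.1 (protocol GE1_107_Sep09, design 028005, build mm9), with background subtracted, per the file headers, and 0 and 1 flags for detection, outliers and saturation. The 62976 spots of an array included 59305 that were no controls, for 55681 probes. Of the non-control spots 45.3% and 44.9% were well above background, and 0 were saturated.

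As the deposited values are linear intensities, log2 was taken first. The 75th percentile of each array was subtracted, outlier spots (136 and 149) were left out, spots of a probe were averaged, and a gene was the mean of its probes well above background on both arrays. With 1 array per genotype no p-value exists, and the number of arrays limits the precision. Over 211 probes with at least 8 spots the SD of the difference had a median of 0.06 (95th percentile 0.22). On bounds, the lowest signals well above background were 22.3 and 24.2. The script was tested on simulated data.

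Gene names are those of the probe annotation. Carriers named by rule were those past 2-fold, the 10 highest and 10 lowest, and bounds of at least 2-fold. The rule also took the ends of each family with at least 5 measured genes and the brightest of each class. It further took 30 picked as relevant to macrophages, whatever their value, and all 30 were measured. At least 2-fold higher was 1 of the 30 (Slc20a1) and lower 1 (Slc39a8), beside 1.43% and 1.73% of all measured genes. Others named were chosen after their values were seen. Members, classes and lists were chosen with earlier results of these data known. Of the remaining marker lists, 6 of 7 stromal markers, 1 of 4 mast cell and basophil markers and 4 of 5 osteoclast markers were measured. Alternatives used limma 3.58.1 in R 4.3.3 (normexp with an offset of 50) and Python 3.11.15. No protein sequences were used here. A few genes that the rule takes are not reported here.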

Additional observations from a re-analysis of the deposited data

How the results depend on the processing

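Against 6 carriers at least 2-fold higher and 4 lower, normexp background correction and no background subtraction each gave 1 higher and 2 lower (0.524% and 1.05%). Over all genes the shares were 0.548% and 0.878% with normexp, and 0.661% and 0.999% without subtraction. No filter on dim probes gave 13 and 12 (3.71% and 3.43%, beside 3.91% and 3.85% of all genes). Keeping only probes at or above the 75th percentile on an array left 117 carriers and also gave 1 and 2. These were 0.855% and 1.71%, beside 0.907% and 1.42% of all genes. The counts follow by construction: this filter removes the 7 dim carriers and keeps Slc24a5 and Slc39a8 through their c-Maf+/- signal. Scaling to the 8 spike-in transcripts gave 8 and 4 (4.19% and 2.09%, beside 2.11% and 1.14% of all genes). Quantile normalization gave 5 and 4 (2.62% and 2.09%, beside 1.44% and 1.65%). Loess and median scaling, the brightest probe per gene, outlier spots kept and, chosen after seeing the data, leaving out probes of several genes gave 6 and 4 each. These were 3.14% and 2.09% of carriers (3.17% and 2.12% in the last). Over all genes the shares were 1.52% and 1.55% with loess and 1.51% and 1.58% with median scaling. They were 1.49% and 1.79% with the brightest probe, 1.43% and 1.73% with outlier spots, and 1.45% and 1.72% in the last. The higher side held 60% of the carrier calls, 33.3% with normexp and 66.7% with spike-in scaling, against 45.2%, 38.4% and 65.0% over all genes. The median of -0.04 became 0.0923 with spike-in scaling, where the median of all genes became 0.11, and 0.0639 without a filter (all genes 0.07). It lay between -0.07 and -0.01 otherwise. No called carrier changed sign under these settings. Dim signals limit 7 of the 10 calls, and the offset of 50 in normexp shrinks their differences by construction. With normexp Slc15a2 was at 0.60, Slc1a2 at 0.52, Slc32a1 at 0.64, Slc6a13 at 0.81, Slc25a30 at 0.54, Slc9a9 at -0.67 and Slc26a4 at -0.66. Without a filter Slc1a2 was at 0.36 and Slc32a1 at 0.81.

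No paired analysis was possible because each genotype has 1 array, and leaving out a replicate was not possible either.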
